A study of Homo sapiens with 60 samples.

Results

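The 36 genes described here encode the machinery of autophagy together with the enzymes, membrane proteins and proton pump of the lysosome. They were chosen by name, as a list of known pathway genes, from the 60675 genes of the deposited table of expected counts (read counts per gene that RSEM estimates and that need not be whole). All 36 were among the 18396 genes that passed the filter on low counts. They fell into 6 roles, which were the 4 ATG8 proteins and cargo receptor, the 7 genes of initiation and conjugation, the 3 regulators of lysosomal transcription, the 12 lysosomal enzymes and activators, the 6 genes of the lysosomal membrane and lipid export, and the 4 subunits of the proton pump.

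The study treated A549, an established human lung carcinoma cell line, for 24 h with ethanol extracts of medicinal herbs or of herbal formulas, and sequenced the RNA of 60 libraries. Cells received Polygalae Radix at 15.2, 76 or 380 µg/mL, or Aucklandiae Radix at 14.8, 74 or 370 µg/mL, each with 2 libraries at a dose. Menthae Herba, Saposhnikoviae Radix and the formulas Guibi-tang and Saengmaek-san were applied at 20, 100 or 500 µg/mL, each with 3 libraries at a dose. Soyo-san had the same doses with 2 libraries each, Okbyeongpung-san had 1 library at each dose, and 3 libraries came from cells given the DMSO vehicle. These doses are called low, medium and high. Per the series description, the high dose was the concentration that inhibited the cells by 20% where that lay below 500 µg/mL, which holds here for Polygalae Radix and Aucklandiae Radix. The labels give the vehicle as 0.1% DMSO and the series description gives another concentration.

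Autophagy encloses cytoplasm in a double membrane and delivers it to the lysosome, where acid hydrolases break it down. The ULK1 kinase and the BECN1 lipid kinase complex start the membrane, ATG7 and ATG5 attach ATG8 proteins such as MAP1LC3B to it, and SQSTM1 (p62) carries ubiquitin-tagged cargo to them. TFEB and TFE3 are transcription factors that bind CLEAR elements, palindromes around CACGTG in the promoters of lysosomal genes, and FLCN helps to keep them out of the nucleus when nutrients are plentiful.

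The libraries held 17113963 to 33363661 expected counts. Of the A549 markers looked at, KRT8 had 441 to 4927 CPM (counts scaled to the normalised library total) and ALDH1A1 946 to 8028 CPM. KRT18 had 390 to 3728 CPM, AKR1B10 618 to 3400 CPM and AKR1C1 109 to 464 CPM. The epithelial markers KRT19, at 2.13 to 46.2 CPM, and EPCAM, at 2.13 to 7.1 CPM, were low. CDKN2A, which A549 has lost, reached at most 0.226 CPM, and PTPRC, PECAM1, COL1A2, DCN, SFTPC and NKX2-1 reached at most 0.222 CPM. The libraries fell into 2 classes by the level of the gene ENSG00000282955, at most 3.5 CPM in 38 libraries (class 1) and at least 17.6 CPM in 22 libraries (class 2). The share of mitochondrial mRNA was 4.66 to 7.27% in class 1 and 7.17 to 14.4% in class 2. Class 2 held all libraries of the vehicle, Soyo-san and Okbyeongpung-san, class 1 held all of Menthae Herba and Aucklandiae Radix, and the other extracts were mixed. In a fit with class as a further term, 11 members were higher and 11 lower in class 2 than in class 1, where 48% of all genes tested were called. Libraries whose names share their first part are called a library set here. The labels do not say what that part stands for, and every title names the same batch. The vehicle libraries formed a library set of their own. Each extract's high dose is therefore compared first with its own low dose, from the same set. Whether replicates were separate cultures is not in the labels, and p-values cover only the spread among the libraries, which may be technical.

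Promoter windows, the 250 bases before each gene's start to 50 after it, were available from RefSeq (GRCh38.p14) for 27 members. UVRAG, CTSB, HEXA, ASAH1, PSAP, LAMP2, ATP6V0E1, ATP6V1A and ATP6V1H are the others. Of each window only the 250 bases before the start were searched, on both strands. The runs sought were CACGTG, the 8-base palindrome TCACGTGA and the 10-base palindrome that has G before and C after it. TGACNNNGC, the core of the antioxidant response element, was sought as well. The first 3 are nested, so that each longer match holds the shorter. CACGTG was in 8 of the 27 members (29.6%) and in 6.49% of all 27305 promoters. TCACGTGA was in 5 members (18.5%) and 0.89% of all promoters, and the 10-base palindrome in 2 members (7.41%), GAA and MCOLN1, and 0.33% of all. TGACNNNGC was in 9 members (33.3%), among them MAP1LC3B and the protease CTSL, and in 11% of all promoters. A match is a run of letters and shows no binding. The stretches around the matches are shown for 7 lysosomal members whose levels are described below, of which MCOLN1 passed no test of the high against the low dose. Capitals mark TCACGTGA in the first 5 stretches and CACGTG in the last 2, each written 5′ to 3′ on the gene's strand.
GAA promoter, chr17:80101484-80101576, plus strand: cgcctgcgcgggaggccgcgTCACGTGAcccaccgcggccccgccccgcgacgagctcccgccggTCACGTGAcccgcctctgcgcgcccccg
MCOLN1 promoter, chr19:7522562-7522623, plus strand: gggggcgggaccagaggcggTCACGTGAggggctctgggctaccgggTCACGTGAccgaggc
CTSA promoter, chr20:45891289-45891334, plus strand: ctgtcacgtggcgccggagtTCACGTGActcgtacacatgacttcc
LAMP1 promoter, chr13:113297190-113297237, plus strand: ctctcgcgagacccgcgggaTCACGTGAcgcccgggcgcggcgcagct
ATP6V0D1 promoter, chr16:67481190-67481237, minus strand: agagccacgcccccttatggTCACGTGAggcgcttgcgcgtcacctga
CTSD promoter, chr11:1763949-1763994, minus strand: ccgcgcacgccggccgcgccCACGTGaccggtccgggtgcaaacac
NEU1 promoter, chr6:31862922-31862967, minus strand: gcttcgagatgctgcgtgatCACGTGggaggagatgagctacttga

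In vehicle cells the order of the levels was taken per kb of exon (the union of the GENCODE 29 exons), since CPM alone grows with the length of a gene. PSAP, the precursor of the saposins that activate lipid breakdown, was highest at a mean of 209 CPM per kb, ranging from 207 to 213 over the 3 libraries. SQSTM1 followed at 105 CPM per kb, CTSL, the cysteine protease cathepsin L, at 93.5 and the tetraspanin CD63 at 91.2, and the ranges of CTSL and CD63 overlapped. At the low end, the WIPI1 gene, whose product binds the forming membrane, had 1.73 CPM per kb, TFEB 0.671 and ATG9B 0.0368. ATG9B stayed between 0.0391 and 0.564 CPM over all 60 libraries, so that its fold changes rest on few reads.

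The members moved in opposite directions under the strongest extracts. At the high dose against the low dose of Polygalae Radix, 25 members fell and 2 rose, where 57% of all genes tested were called (29.1% lower and 27.9% higher) and the members' median log2 fold change was -0.55 against 0.04 over all genes. Under Aucklandiae Radix, 20 members rose and 0 fell, where 18.4% of all genes were called (9.12% higher and 9.33% lower) and the median was 0.29 against 0.01 over all genes. Under Menthae Herba, 12 fell and 2 rose, where 15.5% of all genes were called (9.45% lower and 6.07% higher) and the median was -0.21 against -0.01. Under Guibi-tang 4 members rose and 0 fell (2.94% of all genes called, 0.962% higher and 1.97% lower), and under Soyo-san 3 rose and 0 fell (1.24%, with 0.402% higher and 0.837% lower). Saposhnikoviae Radix and Saengmaek-san had 0 members called by edgeR's quasi-likelihood test, with 1 and 4 at an unadjusted p under 0.05, and for both extracts 0.0707% of all genes were called. DESeq2's Wald test also called 0 members in both. These data come from bulk RNA, in which fewer cells of a type and less RNA per cell cannot be told apart. Under Polygalae Radix the A549 marker KRT8 stood at 511 and 441 CPM at the high dose, against 3648 and 3533 CPM at the low dose, and its part in these results was not tested.

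**Figure D1:**
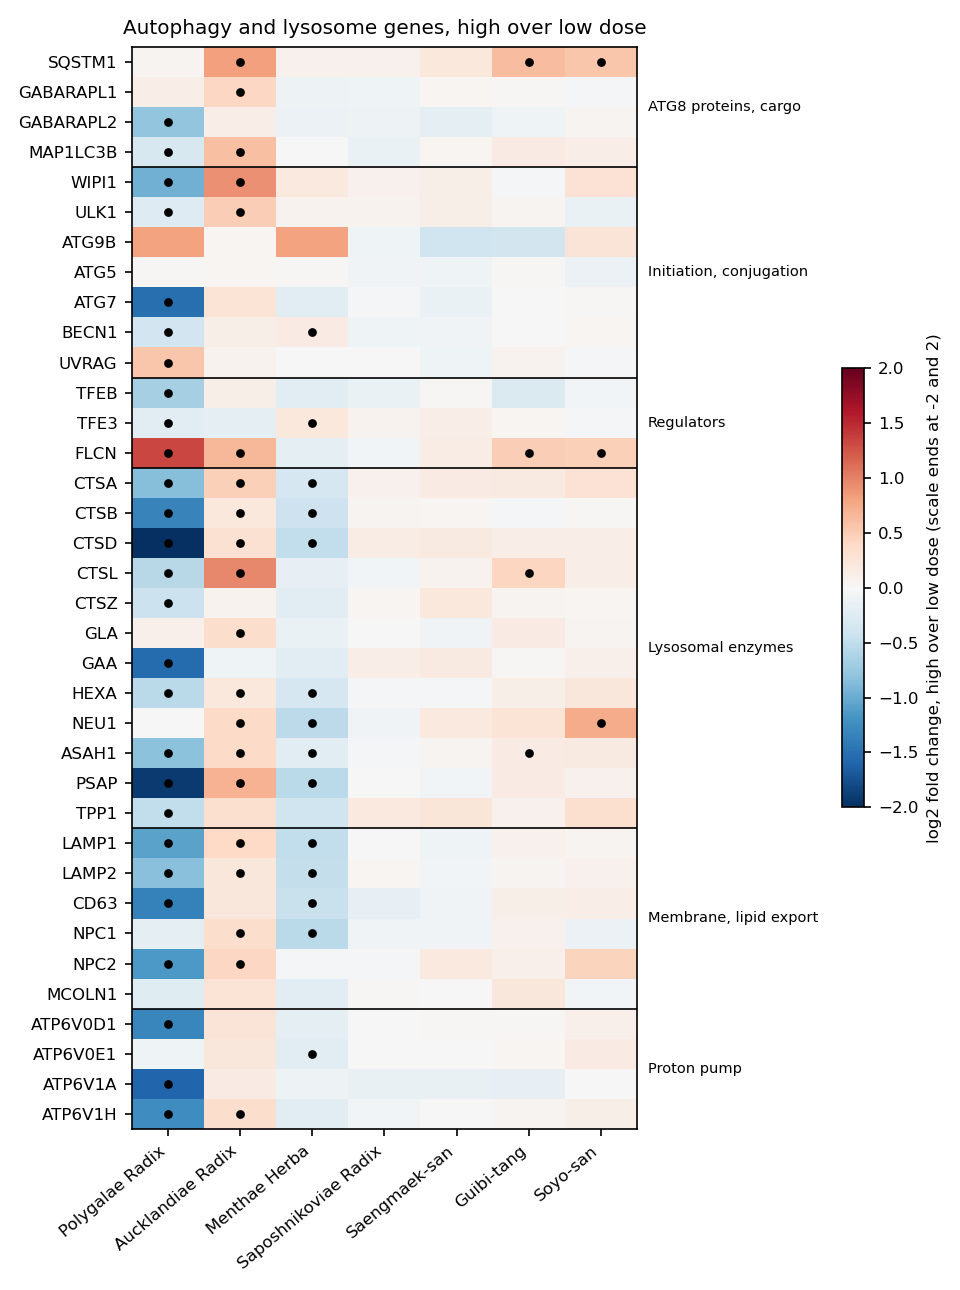
Log2 fold change of the 36 members (rows, grouped by role) at the high over the low dose of 7 extracts (columns), with black dots where the edgeR quasi-likelihood test had an adjusted p under 0.05. The Polygalae Radix column is mostly blue with 25 members lower, the Aucklandiae Radix column mostly red with 20 higher, and Menthae Herba has 12 lower; the colour scale ends at -2 and 2, which CTSD under Polygalae Radix slightly passes.

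With 1 library left out at a time, which left 1 library at that dose, the Polygalae Radix members' median log2 fold change lay between -0.67 and -0.54. The Polygalae Radix count was 28 with class as a term. Within class 1 the high dose of Polygalae Radix had only 1 library, and the median was -0.54. For Aucklandiae Radix the count was 13 without replicate 2 or replicate 3 of the high dose or replicate 3 of the low dose, and 14 without replicate 2 of the low dose; ATP6V1H, CTSB, CTSD, HEXA, LAMP2 and NEU1 lost the call in all 4 cases. The Menthae Herba count lay between 10 and 14 with 1 library left out. It was 22 in a fit of all libraries with each group split by class. There the same Menthae Herba libraries were compared, since all of them are of class 1. For Soyo-san the members' median log2 fold change lay between 0.05 and 0.12 with 1 of its libraries left out. The Soyo-san count was 5 with class as a term and 7 within class 2. All Soyo-san libraries are of class 2, so that these fits too compared the same Soyo-san libraries.

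SQSTM1 (chr5:179806398-179838078 of GRCh38, plus strand), the cargo receptor, rose under 3 extracts and was the most abundant of the autophagy members. It had 1509.8 and 1499.8 CPM at the high dose of Aucklandiae Radix, against 868 and 841 CPM at the low dose. The groups did not overlap, and SQSTM1 rose by 0.82 ± 0.07 on the log2 scale (SE, n = 2 libraries each, edgeR quasi-likelihood test, adjusted p = 3.97e-12). Under Guibi-tang it had 1204, 1196 and 1286 CPM at the high dose, against 828, 765 and 821 CPM at the low dose, a rise of 0.61 ± 0.06 (edgeR adjusted p = 5.11e-10). Under Soyo-san it had 1309 and 1418 CPM at the high dose, against 954 and 902 CPM at the low dose, a rise of 0.56 ± 0.07 (edgeR adjusted p = 1.98e-06). The lowest of these high dose libraries, at 1196 CPM, lay above the vehicle libraries at 773, 808 and 823 CPM.

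Elsewhere SQSTM1 did not pass the test at the high against the low dose. It had 866 and 857 CPM at the high dose of Polygalae Radix, against 800.2 and 858 CPM at the low dose (log2 fold change 0.06 ± 0.07), although the medium dose stood above both at 956 and 1058 CPM. Menthae Herba gave 922, 883 and 946 CPM at the high dose, against 868, 849 and 881 CPM at the low dose (0.08 ± 0.06). Saposhnikoviae Radix gave 902, 860.1 and 877 CPM at the high dose, against 816, 828 and 832 CPM at the low dose (0.09 ± 0.06). Saengmaek-san gave 862, 945 and 1038 CPM at the high dose, against 797, 791 and 876 CPM at the low dose (0.21 ± 0.06, edgeR adjusted p = 0.181). The high dose values of Saengmaek-san were spread the widest of these and overlapped the low dose. SQSTM1 shares exon positions on the opposite strand with MGAT4B, which averaged 116 CPM over all libraries against 938 CPM for SQSTM1; the kit keeps strand, and whether the counting used it is not stated.

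The ATG8 proteins split by extract. MAP1LC3B, which encodes LC3B, the protein that marks the autophagosome, had 111 and 111 CPM at the high dose of Aucklandiae Radix, against 73.6 and 72.4 CPM at the low dose. It rose there by 0.61 ± 0.06 (edgeR adjusted p = 1.21e-10). Under Polygalae Radix it had 63.5 and 58.3 CPM at the high dose, against 77.0 and 74.7 CPM at the low dose, and fell by 0.32 ± 0.06 on the log2 scale (edgeR adjusted p = 1.53e-05). This call was lost when the fit used only the Polygalae Radix libraries compared. GABARAPL1 rose by 0.41 ± 0.09 under Aucklandiae Radix, and GABARAPL2 fell by 0.78 ± 0.16 under Polygalae Radix, both ATG8 proteins of the other branch of the family. The near copies MAP1LC3B2 (0.12 to 1.15 CPM) and GABARAPL3 (at most 0.032 CPM) were low in every library.

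**Figure D2:**
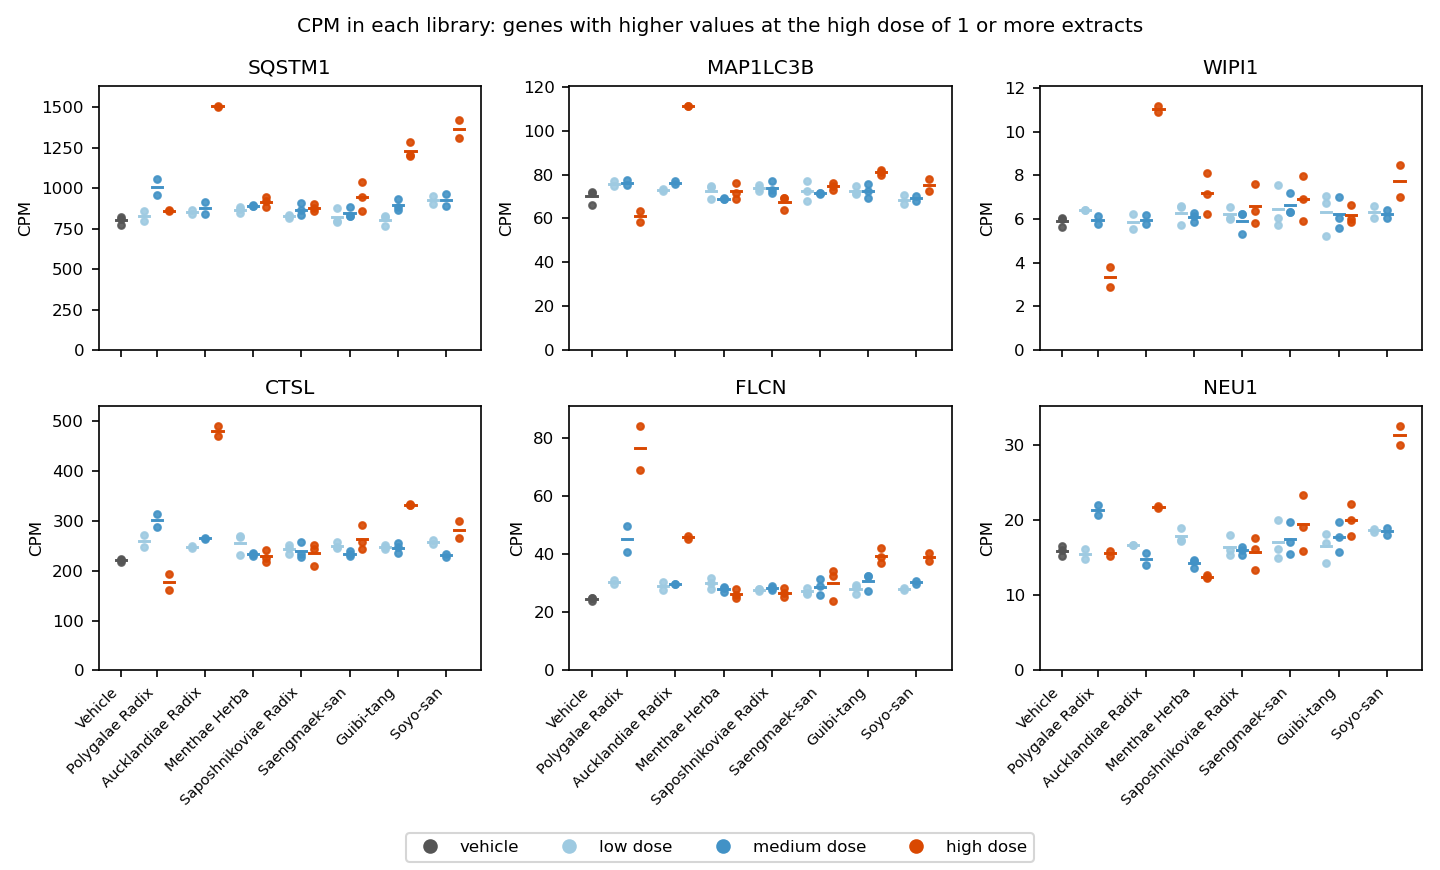
CPM (vertical axes, from 0) in each library of the vehicle and of 7 extracts at the low, medium and high dose, for 6 members; each point is 1 library and each bar a group mean. SQSTM1 stands above its other values at the high dose of Aucklandiae Radix, Guibi-tang and Soyo-san, FLCN is highest at the high dose of Polygalae Radix (69.0 and 84.2 CPM), and NEU1 at the high dose of Soyo-san (32.6 and 30.1 CPM).

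Among the 7 genes of initiation and conjugation, 4 fell and 1 rose at the high dose of Polygalae Radix. At the high dose of Aucklandiae Radix 2 of them rose. Under Polygalae Radix 71.4% of the 7 were called, against 57% of all genes tested (29.1% lower and 27.9% higher). Under Aucklandiae Radix 28.6% of the 7 were called, against 18.4% of all genes tested (9.12% higher and 9.33% lower). WIPI1 (chr17:68420948-68457513, minus strand) had 10.9 and 11.2 CPM at the high dose of Aucklandiae Radix, against 6.24 and 5.53 CPM at the low dose, and rose by 0.91 ± 0.14 (edgeR adjusted p = 4.62e-06). At the high dose of Polygalae Radix it had 3.80 and 2.88 CPM, against 6.42 and 6.43 CPM at the low dose, and fell by 0.96 ± 0.16 (edgeR adjusted p = 1.39e-06). The high dose values of the 2 extracts lay on opposite sides of the vehicle libraries, which had 5.65, 6.03 and 6.00 CPM and are of another library set. ULK1, the kinase that starts autophagy, also rose under Aucklandiae Radix (0.50 ± 0.11) and fell under Polygalae Radix (by 0.26 ± 0.11), and its fall did not hold without replicate 3 of the high dose or replicate 2 of the low dose.

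ATG7, the activating enzyme of the ATG8 conjugation, had the largest fall of this role. It had 7.86 and 11.3 CPM at the high dose of Polygalae Radix, against 28.6 and 27.0 CPM at the low dose, and fell by 1.52 ± 0.13 on the log2 scale (edgeR adjusted p = 4.16e-13). Its conjugation partner ATG5 passed no high against low test, with 23.6 to 36.8 CPM over all 60 libraries. BECN1 fell by 0.38 ± 0.06 under Polygalae Radix and rose by 0.16 ± 0.05 under Menthae Herba, and UVRAG, a partner of BECN1, rose by 0.56 ± 0.09 under Polygalae Radix. The rise of BECN1 under Menthae Herba was lost without replicate 2 or 3 of the high dose or replicate 1 or 2 of the low dose. BECN1 shares exon positions on the opposite strand with PSME3, which averaged 309.9 CPM against 80.8 CPM for BECN1, and ATG7 with VGLL4 (31.6 against 25.5 CPM).

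FLCN (folliculin, chr17:17212212-17237188, minus strand) was the only regulator that rose under more than 1 extract, and it rose under 4. It had 69.0 and 84.2 CPM at the high dose of Polygalae Radix, against 31.0 and 29.7 CPM at the low dose, a rise of 1.34 ± 0.11 (edgeR adjusted p = 5.45e-14). Aucklandiae Radix gave 45.3 and 46.3 CPM at the high dose, against 30.2 and 27.6 CPM at the low dose, a rise of 0.66 ± 0.11 (edgeR adjusted p = 9.84e-06). It had 42.1, 39.0 and 37.0 CPM at the high dose of Guibi-tang, against 29.4, 28.6 and 26.2 CPM at the low dose, a rise of 0.49 ± 0.09 (edgeR adjusted p = 3.44e-04). All high dose libraries of these extracts lay above every library of their low dose. The Soyo-san high dose libraries had 37.5 and 40.2 CPM, against 28.5 and 27.7 CPM at the low dose, a rise of 0.47 ± 0.11 (edgeR adjusted p = 0.02) that was lost whichever of the 4 libraries was left out. FLCN and UVRAG were the 2 members that rose under Polygalae Radix.

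The transcription factors changed less. TFEB had 2.12 to 5.27 CPM over all 60 libraries and fell by 0.67 ± 0.17 under Polygalae Radix (edgeR adjusted p = 1.09e-03). TFE3 fell by 0.23 ± 0.09 under Polygalae Radix and rose by 0.20 ± 0.07 under Menthae Herba. The first of these was lost without replicate 3 of the high dose, and the second without replicate 2 or 3 of the high or of the low dose. Neither factor was called under Aucklandiae Radix at the high against the low dose. RNA levels do not show where these proteins are in the cell.

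The 12 lysosomal enzymes and activators, the largest of the roles, fell under Polygalae Radix and Menthae Herba and rose under Aucklandiae Radix in most of their members. Their summed level was 904 and 997 CPM at the high dose of Polygalae Radix, against 2057 and 2125 CPM at the low dose, and 10 of the 12 fell. At the high dose of Aucklandiae Radix the sum was 3015 and 3108 CPM, against 2117 and 2122 CPM at the low dose, and 9 of 12 rose. At the high dose of Menthae Herba the sum ranged from 1533 to 1702 CPM, against 2030.0 to 2167 CPM at the low dose. There 7 of 12 fell. Over all genes tested, 29.1% were lower under Polygalae Radix, 9.12% higher under Aucklandiae Radix and 9.45% lower under Menthae Herba.

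CTSD, the aspartic protease cathepsin D (chr11:1752752-1764573, minus strand), fell the most of all members. It had 54.2 and 52.0 CPM at the high dose of Polygalae Radix, against 215 and 212 CPM at the low dose, and fell by 2.01 ± 0.10 on the log2 scale (edgeR adjusted p = 1.9e-20). The medium dose lay between, at 175 and 177 CPM. Under Menthae Herba it had 167, 167 and 154 CPM at the high dose, against 222, 229 and 237 CPM at the low dose, and fell by 0.49 ± 0.08 (edgeR adjusted p = 7.57e-06). Under Aucklandiae Radix it had 276 and 289 CPM at the high dose, against 225 and 229.98 CPM at the low dose, a rise of 0.31 ± 0.10 (edgeR adjusted p = 0.0185) that was lost whichever of the 4 libraries was left out.

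PSAP (chr10:71816298-71851375, minus strand) had 178 and 248 CPM at the high dose of Polygalae Radix, against 826 and 775 CPM at the low dose, and fell by 1.91 ± 0.13 (edgeR adjusted p = 3.23e-16). It had 1291 and 1342 CPM at the high dose of Aucklandiae Radix, against 819 and 805 CPM at the low dose, and rose by 0.70 ± 0.13 (edgeR adjusted p = 5.25e-05). Menthae Herba gave 597, 543 and 522 CPM at the high dose, against 826, 746 and 839.7 CPM at the low dose, and PSAP fell by 0.54 ± 0.10 (edgeR adjusted p = 1.44e-04). In all 3 extracts the groups did not overlap. In the vehicle libraries PSAP stood at 670.4, 669.7 and 690.1 CPM, below every low dose library of these extracts.

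CTSL (chr9:87725519-87731393, plus strand) had the largest rise under Aucklandiae Radix. It had 470.2 and 491 CPM at the high dose, against 246 and 249.6 CPM at the low dose, and rose by 0.96 ± 0.08 (edgeR adjusted p = 4.9e-12). Guibi-tang gave 334, 332 and 333 CPM at the high dose, against 244, 247 and 252 CPM at the low dose, and a rise of 0.43 ± 0.07 (edgeR adjusted p = 2.61e-05). Polygalae Radix gave 162 and 193 CPM at the high dose, against 271 and 248 CPM at the low dose, and a fall of 0.55 ± 0.08 (edgeR adjusted p = 2.39e-07). The pseudogenes CTSLP1 and CTSL3P reached at most 0.038 CPM.

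The sialidase gene NEU1 (chr6:31857659-31862906, minus strand) had its highest values at the high dose of Soyo-san. These were 32.6 and 30.1 CPM, against 18.5 and 18.9 CPM at the low dose, and rose by 0.75 ± 0.13 (edgeR adjusted p = 1.13e-03). The Soyo-san replicates differed in mitochondrial mRNA, 13.3 and 8.50% at the high dose, against 7.91 and 10.0% at the low dose, and the part of this in the result was not tested. Under Aucklandiae Radix NEU1 had 21.9 and 21.6 CPM at the high dose, against 16.7 and 16.7 CPM at the low dose (a rise of 0.38 ± 0.13, lost whichever library was left out). Under Menthae Herba it had 12.6, 12.5 and 12.3 CPM at the high dose, against 17.4, 17.3 and 18.9 CPM at the low dose, and fell by 0.52 ± 0.11 (edgeR adjusted p = 5.45e-04).

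CTSB, CTSA and HEXA each fell under Polygalae Radix and Menthae Herba and rose under Aucklandiae Radix. CTSB, the cysteine protease cathepsin B, fell by 1.34 ± 0.06 under Polygalae Radix, to 88.2 and 92.3 CPM at the high dose against 224 and 232 CPM at the low dose. It fell by 0.41 ± 0.05 under Menthae Herba, with 173, 167 and 166 CPM at the high dose against 218, 227 and 229.6 CPM at the low dose, and rose by 0.21 ± 0.06 under Aucklandiae Radix, with 266 and 264 CPM at the high dose against 229.7 and 228 CPM at the low dose. CTSA (protective protein cathepsin A) fell by 0.86 ± 0.11 under Polygalae Radix and by 0.34 ± 0.09 under Menthae Herba, and rose by 0.48 ± 0.11 under Aucklandiae Radix. HEXA, a subunit of beta-hexosaminidase, fell by 0.55 ± 0.07 and by 0.34 ± 0.06 under Polygalae Radix and Menthae Herba, and rose by 0.22 ± 0.07 under Aucklandiae Radix. The rises of CTSB and HEXA under Aucklandiae Radix were lost whichever library was left out.

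ASAH1, the acid ceramidase, was called under 4 extracts. It had 34.6 and 35.7 CPM at the high dose of Polygalae Radix, against 63.0 and 61.7 CPM at the low dose (a fall of 0.82 ± 0.06), and 53.3, 49.6 and 47.4 CPM at the high dose of Menthae Herba, against 59.0, 57.1 and 59.7 CPM at the low dose (a fall of 0.23 ± 0.05). It had 77.9 and 79.4 CPM at the high dose of Aucklandiae Radix, against 61.5 and 59.5 CPM at the low dose (a rise of 0.38 ± 0.06). Under Guibi-tang it rose by 0.16 ± 0.05 (edgeR adjusted p = 0.0447), which was lost without replicate 1 or 3 of the high dose or any replicate of the low dose. GAA, the acid alpha-glucosidase whose promoter stretch is the first of those printed above, had 29.9 and 24.2 CPM at the high dose of Polygalae Radix, against 79.0 and 78.3 CPM at the low dose, and fell by 1.55 ± 0.11 (edgeR adjusted p = 5.23e-16). At the high dose of Aucklandiae Radix it had 81.9 and 81.9 CPM, against 82.7 and 91.9 CPM at the low dose, and was not called (log2 fold change -0.09). TPP1 and CTSZ fell under Polygalae Radix, GLA rose under Aucklandiae Radix, and no other call was made for these 3 genes at the high against the low dose. The fall of TPP1 was lost without replicate 3 of either dose.

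**Figure D3:**
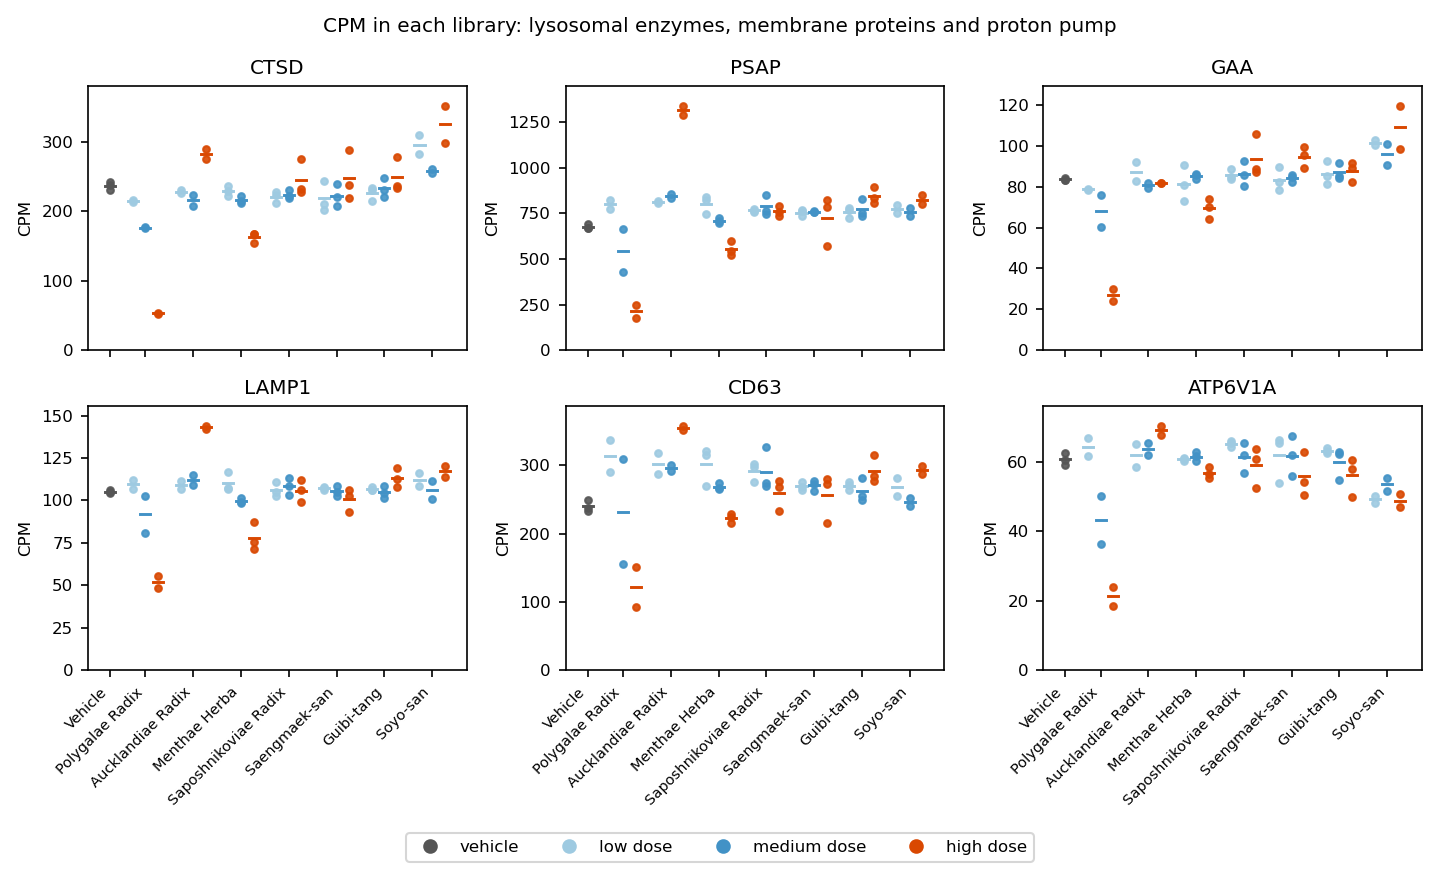
CPM (vertical axes, from 0) in each library of the vehicle and of 7 extracts at the low, medium and high dose, for 6 lysosomal members; each point is 1 library and each bar a group mean. All 6 are lowest at the high dose of Polygalae Radix, for example GAA at 29.9 and 24.2 CPM, and PSAP and LAMP1 are highest at the high dose of Aucklandiae Radix.

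In the lysosomal membrane, LAMP1 and LAMP2, the abundant glycoproteins that line it, fell under Polygalae Radix and Menthae Herba and rose under Aucklandiae Radix. LAMP1 (chr13:113297241-113323672, plus strand) had 48.6 and 55.6 CPM at the high dose of Polygalae Radix, against 112 and 107 CPM at the low dose, and fell by 1.07 ± 0.08 (edgeR adjusted p = 1.91e-14). It had 144 and 142 CPM at the high dose of Aucklandiae Radix, against 111 and 107 CPM at the low dose, and rose by 0.39 ± 0.08 (edgeR adjusted p = 3.62e-04). Menthae Herba gave 87.4, 75.8 and 71.4 CPM at the high dose, against 117, 107 and 107 CPM at the low dose, and LAMP1 fell by 0.50 ± 0.07 (edgeR adjusted p = 2.61e-07). LAMP2 fell by 0.84 ± 0.08 under Polygalae Radix, by 0.48 ± 0.07 under Menthae Herba, and rose by 0.23 ± 0.08 under Aucklandiae Radix, where its call was lost whichever library was left out.

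CD63 showed how far the Polygalae Radix replicates could differ. It had 93.2 CPM in replicate 2 and 151 CPM in replicate 3 at the high dose, against 337 and 291 CPM at the low dose, and fell by 1.36 ± 0.17 (edgeR adjusted p = 3.86e-09). At the medium dose the same replicates had 155 and 309.7 CPM, so that only replicate 2 lay below the low dose there. Replicate 2 at the medium and high dose was of class 2, with 13.9 and 14.4% mitochondrial mRNA, and replicate 3 of class 1, with 5.49 and 6.17%; both low dose libraries were of class 1. CD63 also fell by 0.44 ± 0.13 under Menthae Herba, a call lost without replicate 2 or 3 of the high dose or replicate 1 or 3 of the low dose.

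The cholesterol exporters NPC1, in the membrane, and NPC2, in the lumen, parted. NPC1 fell under Menthae Herba as far as PSAP and NEU1 within their errors, with 42.1, 33.4 and 33.4 CPM at the high dose against 53.0, 56.1 and 49.0 CPM at the low dose (a log2 fold change of -0.54 ± 0.07, edgeR adjusted p = 2.46e-07), while NPC2 was not called there (log2 fold change -0.02). Under Polygalae Radix NPC2 had 16.8 and 20.8 CPM at the high dose, against 43.8 and 40.2 CPM at the low dose, and fell by 1.15 ± 0.13, and NPC1 was not called (log2 fold change -0.18). Both rose under Aucklandiae Radix, by 0.35 ± 0.09 for NPC1 and 0.42 ± 0.13 for NPC2, whose call was lost without either high dose replicate or replicate 3 of the low dose. The calcium channel gene MCOLN1 had 6.86 to 13.2 CPM over all 60 libraries and passed no high against low test. It shares exon positions on its own strand with PNPLA6, which averaged 47.7 CPM against 10.1 CPM for MCOLN1.

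Of the 4 subunits of the V-type proton pump, 3 fell under Polygalae Radix, where 29.1% of all genes tested were lower. ATP6V1A (chr3:113747019-113812056, plus strand), the catalytic subunit, had 18.7 and 24.0 CPM at the high dose, against 61.7 and 66.8 CPM at the low dose, and fell by 1.58 ± 0.12 (edgeR adjusted p = 6.92e-15). ATP6V0D1 fell to 19.7 ± 2.7 CPM at the high dose, against 48.4 ± 0.30 CPM at the low dose (SD, n = 2 each), and ATP6V1H fell by 1.25 ± 0.13 on the log2 scale. ATP6V0E1, a small subunit of the membrane sector, was not called there (log2 fold change -0.09) and fell by 0.23 ± 0.08 under Menthae Herba, a call kept only without replicate 1 of the low dose among the 6 libraries left out in turn. ATP6V1H rose by 0.35 ± 0.12 under Aucklandiae Radix, and this call too was lost whichever library was left out.

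At the medium against the low dose, 8 members passed the test under Polygalae Radix, 5 lower and 3 higher, where 11.8% of all genes were called (6.82% lower and 4.98% higher). ATG7 fell by 0.64 ± 0.13, ATP6V1A by 0.57 ± 0.11, PSAP by 0.55 ± 0.13, CTSD by 0.28 ± 0.10 and LAMP1 by 0.25 ± 0.08 (edgeR adjusted p from 3.92e-04 to 0.0497). FLCN rose by 0.58 ± 0.11, NEU1 by 0.46 ± 0.13 and SQSTM1 by 0.28 ± 0.07 (edgeR adjusted p from 1.92e-04 to 0.0177). For SQSTM1 and NEU1 the medium dose was the highest of the 3, with 956 and 1058 CPM for SQSTM1 and a mean of 21.3 ± 0.94 CPM (SD) for NEU1. The replicates stood apart, as for PSAP with 429 CPM in replicate 2 and 664 CPM in replicate 3. The count was 3 without replicate 2 of the medium dose, 4 without replicate 2 of the low dose, and 0 when the fit used only the libraries compared. In the other 6 extracts 0 members were called by edgeR's quasi-likelihood test at the medium against the low dose. At an unadjusted p under 0.05 there were 4 under Menthae Herba, 2 under Soyo-san, 1 each under Saengmaek-san and Guibi-tang, and 0 under Aucklandiae Radix and Saposhnikoviae Radix. The share of all genes called there was 0.174% for Menthae Herba, 0.0109% for Soyo-san, 0.00544% for Aucklandiae Radix and 0% for the other 3.

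The high doses were also set against the vehicle, with the same 3 vehicle libraries in each comparison. There the treatment and the library set cannot be told apart. Already at the low dose the members' median difference from vehicle lay between 0.06 (Guibi-tang) and 0.17 (Okbyeongpung-san) on the log2 CPM scale. ATP6V0E1 lay the furthest above vehicle of all members at the low dose of 6 of the 8 extracts, by 0.27 to 0.44, and in 2 of these, Menthae Herba and Saposhnikoviae Radix, ATG9B lay further below vehicle. Against vehicle, 27 members fell and 6 rose under Polygalae Radix, where 59.6% of all genes were called (29.5% lower and 30.1% higher). Under Aucklandiae Radix 26 rose and 1 fell, where 35.7% were called (18.5% higher and 17.2% lower). Menthae Herba had 12 lower and 3 higher, where 29.6% were called (15% lower and 14.6% higher). Its count was 24 when the fit used only the libraries compared. TPP1, a tripeptidyl peptidase, fell by 0.74 ± 0.15 there. At the low dose of Menthae Herba TPP1 already differed from vehicle by -0.345 on the log2 CPM scale. All vehicle libraries are of class 2 and all of Menthae Herba of class 1. SQSTM1 rose by 0.91 under Aucklandiae Radix, by 0.77 ± 0.06 under Soyo-san and by 0.62 ± 0.06 under Guibi-tang, each set against the same vehicle libraries.

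Under Soyo-san 15 members were higher than vehicle and 2 lower (28.6% of all genes called, 13% higher and 15.5% lower). NEU1 rose by 0.97 ± 0.12, NPC2 by 0.72 ± 0.12, FLCN by 0.67 ± 0.10 and CTSD by 0.46 ± 0.09, while ATP6V1A fell by 0.31 ± 0.11 and NPC1 by 0.26 ± 0.08. The count was 9 without replicate 2 of the high dose. CTSD stood at 298 and 352 CPM at the high dose and at 309 and 282 CPM at the low dose of Soyo-san, against 229.98, 238 and 242 CPM in vehicle, and it was not called between the doses of Soyo-san. Guibi-tang had 11 members higher and 0 lower (9.53% of all genes called, 4.49% higher and 5.04% lower), and the count was 7 without replicate 1 of the vehicle. Saengmaek-san had 4 higher and 0 lower (3.79% called, 1.96% higher and 1.83% lower), SQSTM1, CTSL, FLCN and ATP6V0E1. That count was 1 without any 1 of the vehicle replicates and 2 without replicate 3 of the high dose, and it was 14 with class as a term and 10 within class 2. Saposhnikoviae Radix had 1 member higher, ATP6V0E1 (1.04% of all genes called, 0.593% higher and 0.451% lower), a call that was lost without replicate 2 or 3 of the vehicle or replicate 1 or 3 of the high dose.

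The extracts of 1 library set could be compared directly. Polygalae Radix at 380 µg/mL and Aucklandiae Radix at 370 µg/mL had doses that differ slightly. Of the members 31 were lower and 2 higher under Polygalae Radix, where 58.1% of all genes were called (29.9% lower and 28.2% higher) and the median difference was -0.86. PSAP had 178 and 248 CPM at the high dose of Polygalae Radix, against 1291 and 1342 CPM at the high dose of Aucklandiae Radix, a difference of -2.63 ± 0.13 on the log2 scale (edgeR adjusted p = 2.53e-20). WIPI1 differed by -1.74 ± 0.15 and CTSL by -1.44 ± 0.08, while FLCN was higher under Polygalae Radix by 0.74 ± 0.11. The difference between the 2 dose effects (high against low under Polygalae Radix, minus the same under Aucklandiae Radix) was called for 30 members, 28 negative and 2 positive, where 45.9% of all genes were called (25.3% negative and 20.5% positive). It was -2.61 ± 0.18 for PSAP, -2.32 ± 0.14 for CTSD and -1.87 ± 0.21 for WIPI1.

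**Figure D4:**
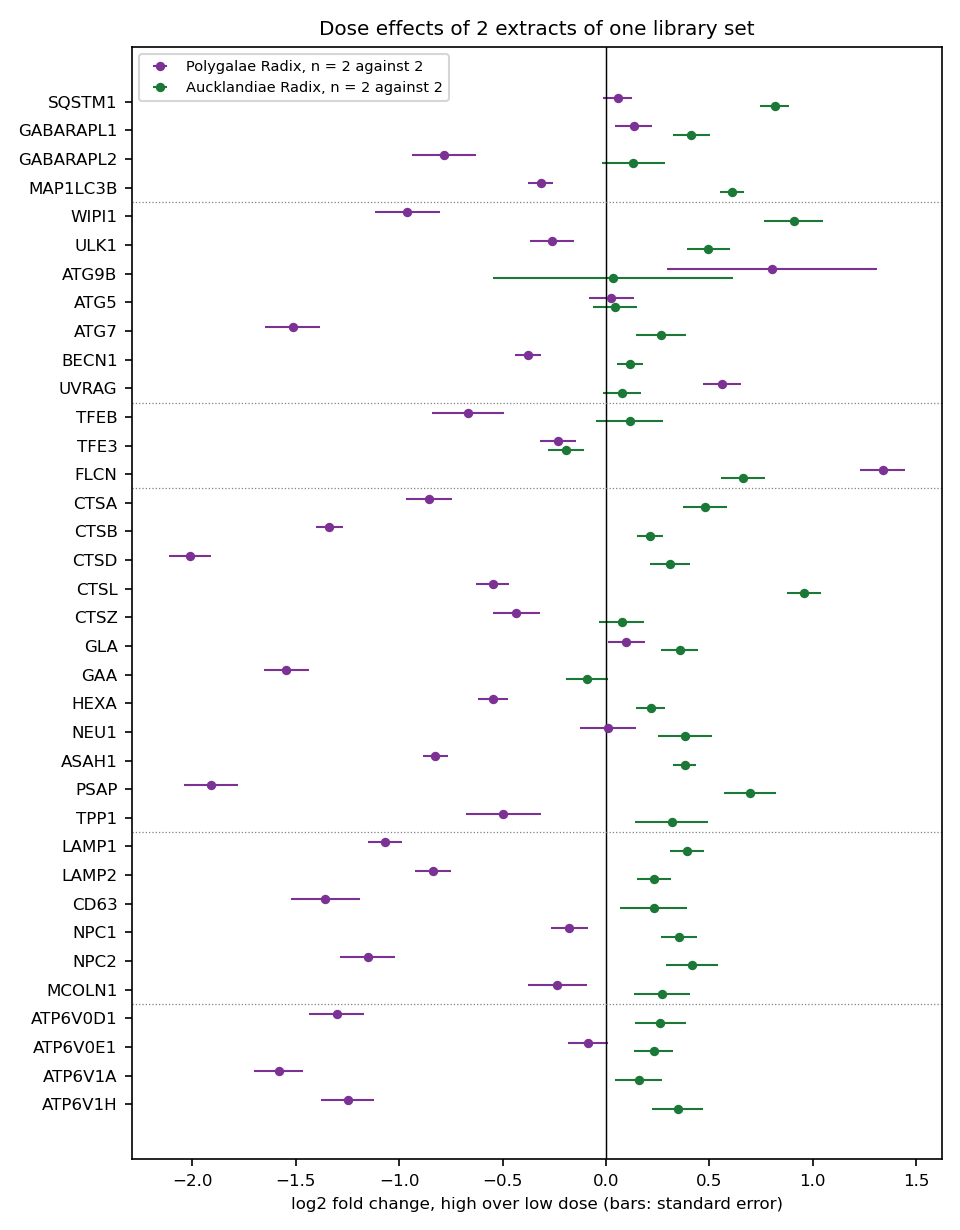
Log2 fold change at the high over the low dose (horizontal axis) of the 36 members (rows, dotted lines between roles). Polygalae Radix is purple and Aucklandiae Radix green, with n = 2 libraries at each dose. Bars are 1 standard error, with the spread estimated over all 57 libraries of the fit. PSAP lies at -1.91 for Polygalae Radix and 0.70 for Aucklandiae Radix, and FLCN is to the right of 0 for both.

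At 500 µg/mL, 12 members were lower and 1 higher under Menthae Herba than under Saposhnikoviae Radix (16.2% of all genes called, 9.9% lower and 6.27% higher). TPP1 had the largest difference at -0.68 ± 0.15, followed by CTSD at -0.59 ± 0.08, NPC1 at -0.58 ± 0.07 and LAMP2 at -0.57 ± 0.07. BECN1 was higher by 0.23 ± 0.05. Replicate 2 of the high dose of Saposhnikoviae Radix was of class 2, and all Menthae Herba libraries were of class 1. In the fit with class as a term, TPP1 was 0.37 higher in class 2 than in class 1 on the log2 scale. There all 13 members kept the call. The difference of the 2 dose effects was called for 9 members, 8 negative and 1 positive (6.43% of all genes called, 4.53% negative and 1.9% positive), with CTSD at -0.64 ± 0.11. Between the formulas at 500 µg/mL, SQSTM1, CTSL and FLCN were higher under Guibi-tang than under Saengmaek-san by 0.37 ± 0.06, 0.33 ± 0.07 and 0.38 ± 0.09 (2.2% of all genes called, 0.636% higher and 1.57% lower), and 0 members were called when the fit used only those 6 libraries. FLCN also lost the call without replicate 1 of the high dose of either formula. The difference of their dose effects was called for SQSTM1 alone, at 0.40 ± 0.08 (edgeR adjusted p = 6.73e-03, 0.451% of all genes called, 0.0978% positive and 0.353% negative), and for 2 members without replicate 1 of the high dose of Saengmaek-san. SQSTM1 had 1204, 1196 and 1286 CPM at the high dose of Guibi-tang, against 862, 945 and 1038 CPM at the high dose of Saengmaek-san.

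Beyond the 36, 6 wider lists of pathway genes held 135 other genes, of which 132 were tested. At the high against the low dose of Polygalae Radix, 26 of 34 further lysosomal hydrolases fell and 2 rose, 9 of 13 cargo receptors fell and 0 rose, 16 of 31 autophagy genes fell and 6 rose, and 9 of 16 genes of the proton pump fell and 1 rose. Of 18 membrane genes 9 fell and 4 rose, and the 20 genes of mTORC1 and TFEB control were split at 7 lower and 6 higher. Over all genes tested 29.1% were lower and 27.9% higher there, and the split of the control genes (7 and 6 of 20) is near that background. LIPA, the lysosomal acid lipase, fell by 1.89 ± 0.07 and LGMN, the protease legumain, by 1.84 ± 0.09, while ATP6AP2, an accessory pump subunit, fell by 2.37 ± 0.13. RRAGD, a Rag GTPase that recruits mTORC1 to the lysosome, rose by 2.29 ± 0.20 and FNIP1, the partner of FLCN, by 1.59 ± 0.15. MTOR itself fell by 1.16 ± 0.09, with 33.4 ± 0.43 CPM at the high dose against 74.4 ± 1.7 CPM at the low dose (SD, n = 2 each).

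Under Aucklandiae Radix 11 of 31 autophagy genes rose and 2 fell, 6 of 13 receptors and 7 of 18 membrane genes rose with 0 lower in either list, 7 of 34 hydrolases rose and 2 fell, 5 of 20 genes of mTORC1 and TFEB control rose and 0 fell, and 4 of 16 pump genes rose and 2 fell, where 9.12% of all genes were higher and 9.33% lower. The sialic acid exporter SLC17A5 rose by 0.98 ± 0.13, RRAGD by 0.92 ± 0.21, MAP1LC3A by 0.91 ± 0.19 and the mitophagy receptor OPTN by 0.72 ± 0.09, whereas cathepsin S (CTSS) fell by 0.86 ± 0.14. Under Menthae Herba 19 of 34 hydrolases fell and 0 rose, and 6 of 18 membrane genes fell. There SMPD1, the acid sphingomyelinase, fell by 0.77 ± 0.12 and ATP6AP1 by 0.50 ± 0.06, while 3 of 31 autophagy genes fell and 1 rose, 2 of 13 receptors rose and 1 fell, 3 of 16 pump genes fell and 1 rose, and 1 of 20 control genes was called in each direction. Over all genes 9.45% were lower and 6.07% higher under Menthae Herba, a background that the share of the autophagy genes is near. Under Guibi-tang RRAGD rose by 0.74 ± 0.17 and SLC17A5 by 0.41 ± 0.11, and MITF, a relative of TFEB, fell by 0.31 ± 0.09. Under Soyo-san NAGLU rose by 0.41 ± 0.10.

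**Figure D5:**
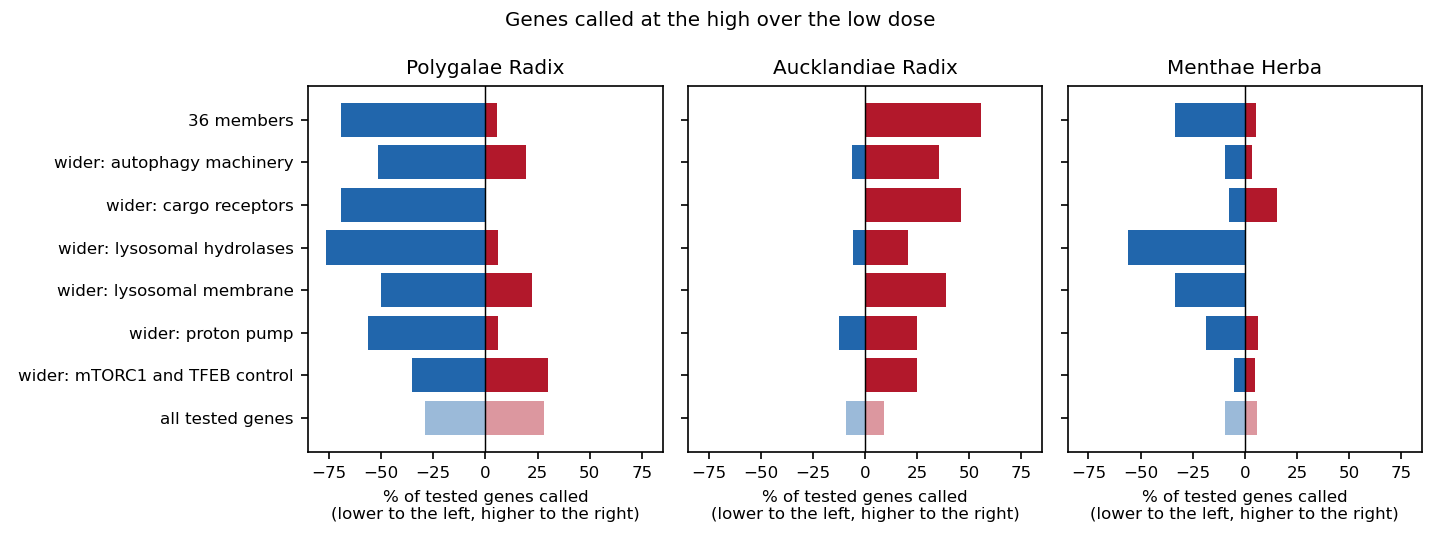
Percent of tested genes called higher (right of 0, red) and lower (left of 0, blue) at the high over the low dose of 3 extracts, for the 36 members, the 6 wider lists and, in paler colours, all 18396 genes tested. Under Polygalae Radix 29.1% of all genes were lower against 25 of 36 members. Under Menthae Herba 9.45% of all genes were lower against 19 of 34 further hydrolases.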

How the data were processed

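The 60 libraries are RNA sequencing of A549 cells. The submitters' processing notes name RSEM 1.3.3, STAR 2.7.3a, Trim Galore 0.6.5 and FastQC 0.11.9 and the builds hg38 and GRCh38; no source used here gives the annotation release or read filters. The authors deposited expected counts per Ensembl gene, of which 9.95% carry decimals, with 17113963 to 33363661 in total per library; no column was unused. Symbols were found for 56558 IDs, and positions and exon lengths came from GENCODE 29, which may differ from the submitters' release.

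The counts were rounded and fitted in edgeR 4.0.16 (R 4.3.3, limma 3.58.1) over 57 libraries in 22 groups, with TMM normalization, filterByExpr and 35 residual degrees of freedom. Okbyeongpung-san, with 1 library per dose, was described without a test. The quasi-likelihood F-test was two-sided, p-values were adjusted (Benjamini-Hochberg) across the 18396 genes tested, and a gene with an adjusted p under 0.05 was called. "Rose" and "fell" are used of calls. An error beside a log2 fold change is its standard error (the absolute log2 fold change over the square root of F), and one beside CPM is a standard deviation. The standard error uses a spread estimated over all 57 libraries, not only those compared. In all 27 comparisons were made, 3 of them, the differences of dose effects, added after the data were seen. The fit was tested on simulated data with known changes for the high against the low dose of Menthae Herba. Of 59 genes changed by 0.5 on the log2 scale, at a mean of 5 CPM or more, 83.1% were called. Of 61 such genes changed by 1, 98.4% were called. No other group was given changes, and comparisons with 2 libraries at a dose were not simulated.

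The members, the gene lists and the tests were chosen with earlier results of these data known. Values in full are given for SQSTM1 in every extract, for up to 5 called members per extract and direction, and for members called in at least 3 extracts; members described for their role beside these were chosen after their values were seen. From each wider list at most 2 called genes per direction were named, and some results that this rule would name are not reported here. Alternatives were DESeq2 1.42.0 (size factors, Wald test), no filter, only the libraries compared, library class, the replicate number as a block, and each library left out. With 3 pairs, same-numbered libraries deviated together (every correlation above 0.1) for the medium against the low dose of Saengmaek-san (0.252 to 0.507) and of Guibi-tang (0.138 to 0.449), where 0 members were called with and without the block.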

Additional observations from a re-analysis of the deposited data

Results flagged for a closer look

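The dose effect (high against low) differed between extracts of the same library set, by a test of the difference itself with edgeR's quasi-likelihood test. The difference was called for 30 of 36 members between Polygalae Radix and Aucklandiae Radix, 28 with the more negative effect under Polygalae Radix and 2, FLCN and UVRAG, with the more positive one, where 45.9% of all genes were called (25.3% negative and 20.5% positive). It was called for 9 members between Menthae Herba and Saposhnikoviae Radix, of which CTSD, PSAP, LAMP2, LAMP1, CTSB, NPC1, CTSA and HEXA had the more negative effect under Menthae Herba and BECN1 the more positive one, where 6.43% of all genes were called. Between Guibi-tang and Saengmaek-san it was called for 1 member, SQSTM1, with the more positive effect under Guibi-tang, where 0.451% of all genes were called.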

How the results depend on the processing

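Of 3376 single-gene results under alternatives, 3065 kept their direction and their side of the threshold, 311 lost the call and 0 reversed. Of 354 summary values, nearly all of them counts of members, 318 were taken as unchanged. A count was so taken if it stayed within 1.5 times the value reported, or if it was 0 and stayed 0. The 354 include median log2 ratios of Okbyeongpung-san, which were judged by the size of their shift instead. The causes of the changes below were not tested. With only the libraries compared, 0 members were called for the medium against the low dose of Polygalae Radix (8 in the full fit), for the high dose of Saengmaek-san against vehicle (4), for Guibi-tang against Saengmaek-san at the high dose (3) and for the difference of their dose effects (1), while Menthae Herba against vehicle had 24 (15) and Saposhnikoviae Radix against vehicle 2 (1). With class as a term the counts were 5 for the high against the low dose of Soyo-san (3), 14 for Saengmaek-san and 4 for Saposhnikoviae Radix against vehicle. The within-class values come from a fit of all libraries with each group split by class. Within class 2 the count was 7 for the high against the low dose of Soyo-san, whose libraries are all of class 2. It was 10 for Saengmaek-san against vehicle. For Saposhnikoviae Radix, with 1 high dose library in class 2, the members' median log2 fold change from vehicle was 0.10. The high against the low dose of Menthae Herba, with the same libraries, all of class 1, had 22 (14). DESeq2's Wald test called 2 members for Saposhnikoviae Radix against vehicle and 2 for the difference of the Guibi-tang and Saengmaek-san dose effects, and without a filter on low counts this difference had 0.

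Leaving out 1 library at a time gave 13 to 14 for the high against the low dose of Aucklandiae Radix, 3 to 12 for the medium against the low dose of Polygalae Radix and 0 to 1 for the high against the low dose of Saengmaek-san. Against vehicle it gave 7 to 10 for Guibi-tang, 1 to 6 for Saengmaek-san, 0 to 1 for Saposhnikoviae Radix and 9 to 16 for Soyo-san, and it gave 1 to 2 for the difference of the Guibi-tang and Saengmaek-san dose effects. A lone library left in a group was assumed to vary like the other groups. With the replicate number as a block, 6 members were called for the high against the low dose of Soyo-san, 1 for Saengmaek-san (0 without it) and 2 for the difference of the Guibi-tang and Saengmaek-san dose effects. The block ended no call of a single member and moved no other count of members by over 1.5 times. Same-numbered libraries share a number and, within a library set, the start of their names. For the high against the low dose of Saengmaek-san every library correlated best with its own number. Replicate 3 was of class 2 at every dose of Saengmaek-san and Guibi-tang. The only other class 2 library of these extracts was replicate 1 of the high dose of Saengmaek-san. The part of class in these correlations was not tested. Depth limits ATG9B most, at 0.0391 to 0.564 CPM.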

Other observations

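Okbyeongpung-san had 1 library at each dose, so its values carry no test. SQSTM1 had 956, 994.5 and 1178 CPM at the low, medium and high dose. Set against the mean of the vehicle libraries, the high dose library differed by 0.60 for CTSL, 0.56 for SQSTM1, 0.52 for CTSD and 0.43 for FLCN on the log2 scale. Against its own low dose it differed by 0.40 for CTSL, 0.30 for SQSTM1, 0.22 for CTSD and 0.16 for FLCN. ATG9B, which rests on few reads, differed by 0.86 from vehicle. ATP6V1A differed from vehicle by -0.23, WIPI1 by -0.20, NPC1 by -0.19 and GABARAPL2 by -0.10. Against the low dose library these differed by 0.08 for ATP6V1A, -0.49 for WIPI1, 0.02 for NPC1 and -0.08 for GABARAPL2.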
